A study of Mus musculus with 96 samples.

Results

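The descending thin limb of the loop of Henle was sampled at 2 places of the outer medulla that lie beside each other in the kidney but belong to different nephrons. DTL1 is the descending limb of short loops, and DTL2 is the outer medullary part of the descending limb of long loops. The comparison used the 4 dissected DTL1 pieces, from 3 mice, and the 7 dissected DTL2 pieces, from another 3 mice, that is 11 of the 93 tubule and glomerulus samples and 6 of the 53 mice of the series. They were found by the segment in the sample name. All animals were male C57BL/6 mice of 6 to 8 weeks kept on normal chow and water, no genotype or treatment set the groups apart, and each library was made by ultra-low-input RNA sequencing of polyadenylated RNA from a microdissected piece. The DTL1 animals carry the numbers 1, 3 and 5, with 2 pieces from mouse 3. The DTL2 animals carry the numbers 1, 2 and 3, with 2 pieces each from mice 1 and 2 and 3 pieces from mouse 3. Levels are in TPM, a share of all transcripts, which are scaled by gene length and to a fixed total in every library, so the sequencing depth of a piece is unknown.

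Descending thin limbs connect the proximal straight tubule to the hairpin turn and take part in concentrating the urine. Limbs of long loops are known for water permeability through the water channel aquaporin-1, and limbs of short loops for the urea transporter UT-A2, which lets urea that leaves the inner medulla return to the nephron. Short-loop limbs run close to the vascular bundles and continue into the thick ascending limb, while long-loop limbs go on into the inner medulla (DTL3) and then into the thin ascending limb (ATL).

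The defining genes of both limbs were looked at first. Slc14a2, the gene of UT-A1 and UT-A2 (ENSMUSG00000024552), stood at 9810 TPM in the DTL1 piece of mouse 1, at 7930 and 9680 TPM in the pieces of mouse 3 and at 4050 TPM in that of mouse 5. In the 7 DTL2 pieces its lowest value was 0.95, its median 2.26 and its highest 15.5 TPM. Every DTL1 piece was far above every DTL2 piece, with mouse 5 the lowest of DTL1. Lypd2, a small surface protein of the Ly6 family (ENSMUSG00000022595), showed the opposite picture. It had 41.1 TPM in mouse 1, 0 and 3.09 TPM in mouse 3 and 0 TPM in mouse 5 of DTL1, against a lowest value of 3190, a median of 4130 and a highest value of 7190 TPM in DTL2. The DTL1 piece of mouse 1 was the only one of its segment above 5 TPM, and the segments did not overlap. Gene-level values cannot tell the short UT-A2 transcript from the long UT-A1 transcript.

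The mean over mice of Slc14a2 was 7560 ± 3070 TPM (SD, n = 3 mice) in DTL1 and 4.63 ± 3.15 TPM (n = 3) in DTL2, a difference of 10.73 on the log2(TPM + 1) scale (SE 0.34, adjusted p = 5.98e-06, limma). Lypd2 was at 14.2 ± 23.3 TPM in DTL1 and 5030 ± 1280 TPM in DTL2, a log2 difference of -10.10 (SE 1.17, adjusted p = 0.00138). Without DTL1 mouse 1 the Lypd2 difference was -11.73. The third gene that separates the limbs by textbook knowledge, Aqp1, was at 227 TPM in mouse 1, 14.8 and 18.1 TPM in mouse 3 and 48.6 TPM in mouse 5 of DTL1, and from 5440 to 8400 TPM in DTL2, with a median of 6370. The segments did not overlap, and mouse 1 was again the highest of DTL1. The difference was -6.81 (SE 0.76, adjusted p = 0.00117), going to -7.79 without DTL1 mouse 1 and to -5.94 without DTL1 mouse 3. In whole pieces of tubule, fewer cells of a type and less RNA per cell cannot be told apart, which holds for every difference given here.

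The libraries of the 2 segments also differed in overall make-up, as the plot of per-piece measures shows. DTL1 pieces listed 26044 to 28418 genes at 1 TPM or more and DTL2 pieces 17220 to 21878, with mouse means of 27303 ± 1093 and 20234 ± 529 (n = 3 each). Odorant and vomeronasal receptor genes, which tubules are not known to use, were at 1 TPM or more in 691 ± 55 and 275 ± 36.7 genes of 1459. The exact two-sided permutation test over mice gave p = 0.1 for each, the smallest value that 3 against 3 allow. Across genes, DTL1 pieces of different mice correlated at 0.807 to 0.91, with mouse 5 the farthest away (0.807 to 0.816), and DTL2 pieces at 0.919 to 0.949. Between the segments, DTL1 and DTL2 pieces correlated at 0.761 to 0.876. The median between segments, 0.863, was above the median of 0.816 within DTL1. At 10 TPM or more the median SD over mice was 0.353 log2 units in DTL1 and 0.216 in DTL2. For these reasons weight was given to genes with a mean of at least 10 TPM in a segment.

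**Figure D1:**
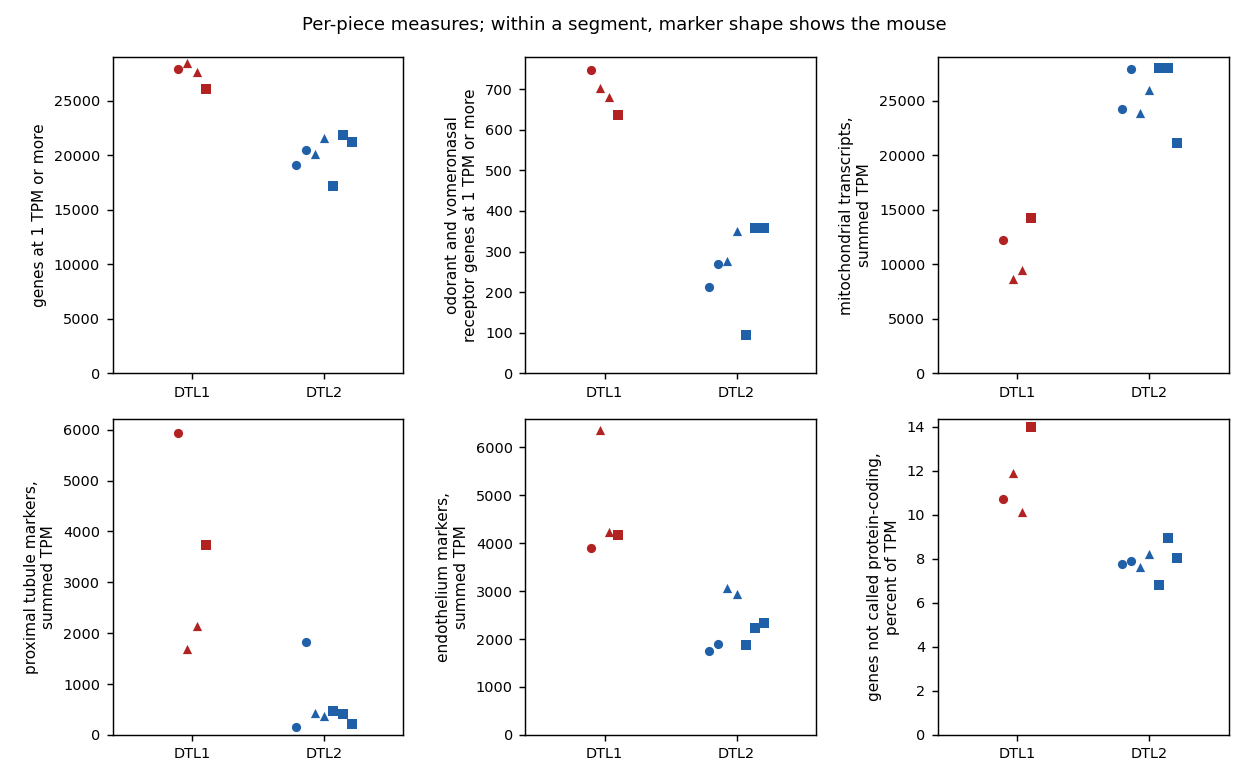
The plot shows 6 measures in each of the 4 DTL1 pieces and 7 DTL2 pieces, 1 point per piece, with marker shape for the mouse within a segment and axes starting at 0. The number of genes listed, the receptor genes, the proximal tubule markers (1677 to 5929 against 151 to 1821 summed TPM) and the endothelial markers were higher in DTL1, and mitochondrial transcripts (8606 to 14152 against 21075 to 28001 summed TPM) were higher in DTL2.

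Markers of several neighbouring cell types differed between the segments. Of the proximal tubule list, 10 of the 12 genes at 10 TPM or more were higher in DTL1 and 0 in DTL2, against 14.8% and 5.56% of all genes at that level (7 without DTL1 mouse 1, DTL2 mouse 1 or DTL2 mouse 3, and 7 after median-ratio rescaling), and the list summed to 3856 ± 2014 TPM against 584 ± 348 TPM. Kap, the androgen-regulated protein of proximal cells, was at 2500 ± 1600 TPM in DTL1 and 230 ± 183 TPM in DTL2, against 75400 TPM in the last proximal straight segment. The endothelial list summed to 4457 ± 747 against 2323 ± 608 TPM (3893 to 6372 and 1751 to 3062 TPM by piece). Of its 14 genes at 10 TPM or more, 5 were higher in DTL1 and 0 in DTL2 (14.8% and 5.56% over all such genes). The counts were 2 and 1 after median-ratio rescaling, and 2 and 0 without DTL2 mouse 1 or DTL2 mouse 3. Plvap, a protein of fenestrated capillaries, was at 2300 ± 493 and 1010 ± 373 TPM. Its call was lost after median-ratio rescaling, in a fit on all 15 groups and without DTL2 mouse 1 or DTL2 mouse 3. Kdr (21.1 ± 6.82 and 39.2 ± 14.3 TPM) and Esam (323 ± 57.6 and 391 ± 22.3 TPM) leaned to DTL2 and were not called. Thick-limb markers summed to 95.2 to 438 TPM in DTL1 and 38.2 to 87.4 TPM in DTL2, but this was Umod (uromodulin; 254 ± 164 and 19.9 ± 2.18 TPM), the 1 called member. Egf (13.4 ± 2.62 and 18.7 ± 1.08 TPM) and Ppp1r1b (7.51 ± 8.35 and 14.1 ± 8.96 TPM) were not called, and the 6 tested thick-limb members had a median log2 difference of 0.24 where all genes had 0.57. Markers of the thin ascending limb went the other way, at 17.3 to 35.4 TPM in DTL1 and 131 to 242 TPM in DTL2. Stromal markers summed to 80.7 ± 9.76 and 27.1 ± 9.34 TPM, distal and collecting duct markers to 59.9 ± 32.4 and 8.46 ± 0.598 TPM, podocyte markers to 82.4 ± 14.9 and 46.9 ± 6.86 TPM and leukocyte markers to 223 ± 170 and 212 ± 20.8 TPM, and erythroid markers were at or near 0 in both. Their part in the differences that follow was not tested.

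Of 24793 genes tested by limma, 4311 (17.4%) were called, that is, had an adjusted p under 0.05 and a log2 difference of at least 1. Of the 11734 genes at 10 TPM or more in a segment, 1732 (14.8%) were higher in DTL1 and 652 (5.56%) were higher in DTL2, while 9350 were not called. DTL1 thus took 72.7% of the calls at 10 TPM, but 44.9% after rescaling the mice by the median ratio over genes present in all and 45.7% after quantile normalization. Over genes of lower level the differences leaned towards DTL1. The median log2 difference was 0.57 over all genes tested and 0.28 at 10 TPM or more, and it went to -0.08 and 0.01 at 10 TPM under those rescalings. At 100 TPM or more in a segment, 2353 genes had a median of 0.02 and 1779 of them were not called. Of the DTL1-higher genes 73.8% were annotated as protein-coding and 1295 had all 4 DTL1 pieces above all 7 DTL2 pieces. Of the DTL2-higher genes 88.8% were protein-coding and 600 separated the pieces in the same way. Leaving out a DTL2 mouse lowered the counts, to 769 and 414 without mouse 1, 976 and 490 without mouse 2 and 803 and 445 without mouse 3. The 22 genes of large difference plotted below kept their call under each of the 21 alternatives in which they were tested. Of these, Prss12, Uncx, Htr4, Krt23 and Amdhd1, which lie near 0 in DTL2, fell under the filter and had no test when a DTL1 mouse was left out. The 22 genes were chosen for large differences in these same pieces, so their kept calls do not speak for the other calls.

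**Figure D2:**
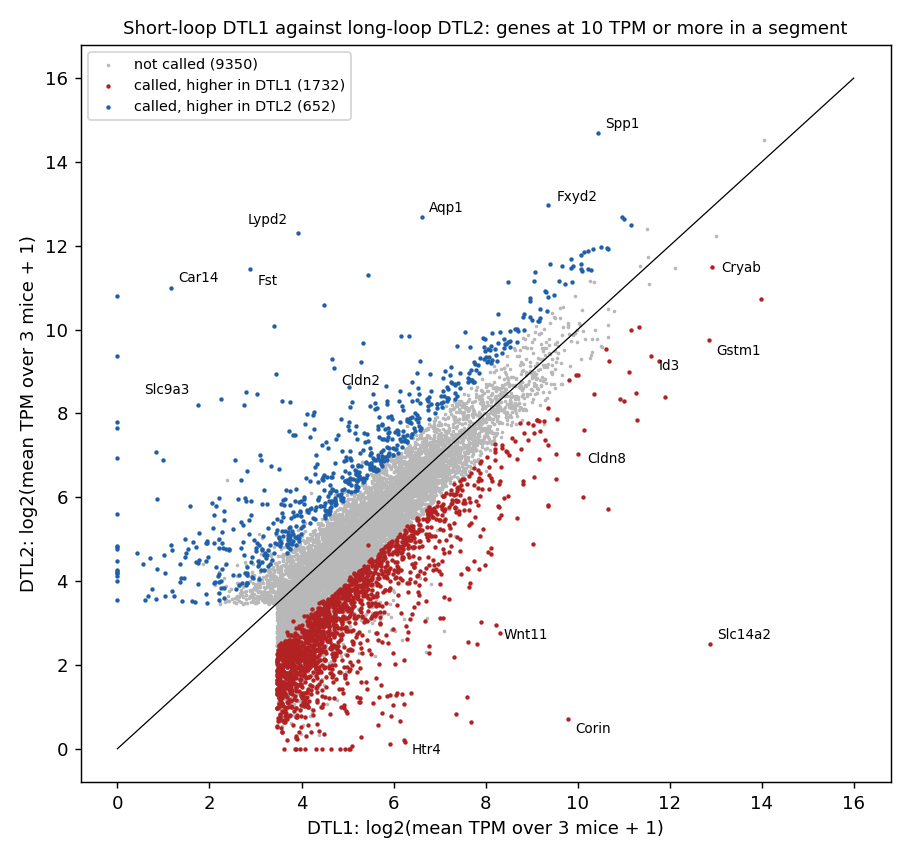
Mean level of each gene at 10 TPM or more in a segment, DTL1 on the horizontal and DTL2 on the vertical axis, both as log2(mean TPM over 3 mice + 1), with called genes coloured by direction. The 1732 genes higher in DTL1 lie below the diagonal and the 652 higher in DTL2 above it, and Slc14a2 and Lypd2 sit at the 2 far corners.

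After Slc14a2, the largest difference in favour of DTL1 was in Corin, the serine protease known for cutting the precursor of atrial natriuretic peptide. Its 4 DTL1 pieces held 1130, 895, 1220 and 464 TPM (in the order mouse 1, both pieces of mouse 3, mouse 5, which is used from here on), and its DTL2 pieces 0.17 to 1.09 TPM with a median of 0.52. The groups lay far apart, with a difference of 9.0 (SE 0.36, adjusted p = 1.46e-05). Prss12, the serine protease neurotrypsin, held 295, 187, 267 and 89.3 TPM in DTL1 and 0 to 1.46 TPM in DTL2 (median 0.41), a difference of 6.94 (SE 0.44). Mouse 5 was lowest for both proteases, as it was for Slc14a2. Uncx, a homeobox transcription factor, was at 230, 165, 161 and 95.1 TPM in DTL1 and at 0 to 1.93 TPM in DTL2 (median 0.64), a difference of 6.51 (SE 0.35).

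The genes that followed were of several kinds. Npy, neuropeptide Y, held 159, 343, 216 and 135 TPM in DTL1 against 0 to 3.86 TPM in DTL2 (median 0.96), a difference of 6.47 (SE 0.30, adjusted p = 3.3e-05). Htr4, a serotonin receptor that raises cyclic AMP, held 85.3, 72.3, 94 and 53.3 TPM against 0 to 0.44 TPM (median 0.08), a difference of 5.99 (SE 0.32). Cpe, carboxypeptidase E, which trims peptide hormones in secretory granules, held 309, 236, 459 and 297 TPM against 3.65 to 8.94 TPM (median 5.61), a difference of 5.56 (SE 0.22). The pieces of these genes do not overlap because the genes were chosen so, here and for the others of the largest differences. Wnt11, a Wnt ligand, varied widely, with 188, 934, 335 and 74.7 TPM in DTL1 and 0.34 to 24.8 TPM in DTL2 (median 3.23). Its difference was 5.34 (SE 0.72, adjusted p = 0.00285), and the 2 pieces of mouse 3 were the highest.

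Among the others were Krt23, a keratin, with means of 59.5 ± 13.5 and 0.0756 ± 0.0934 TPM; Amdhd1, an enzyme of histidine breakdown, with 69.5 ± 28.8 and 0.581 ± 0.25 TPM; and Fam84a, with 225 ± 71 and 4.65 ± 1.49 TPM.

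The DTL2 side was led, after Lypd2, by Car14, a carbonic anhydrase of the cell surface. It held 3.4, 0.47, 0.25 and 0 TPM in DTL1 and 1010 to 2630 TPM in DTL2 (median 2330). The highest DTL1 piece and the lowest DTL2 piece were thus far apart, and the difference was -10.05 (SE 0.54, adjusted p = 5.03e-05). Fst, follistatin, a secreted protein that binds activins, was at 3.37, 4.48, 7.35 and 9.91 TPM in DTL1 and at 1710 to 3270 TPM in DTL2 (median 3030), a difference of -8.63 (SE 0.32, adjusted p = 1.3e-05). Enpp2, autotaxin, the secreted enzyme that makes lysophosphatidic acid, was at 14.8, 13.4, 8.69 and 2.67 TPM in DTL1 and at 702 to 1260 TPM in DTL2 (median 1190), a difference of -6.93 (SE 0.48). Enpp2 was also high in the first proximal segment and the medullary thick limb, as the levels over the 15 groups below show.

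The other genes of large difference were of several kinds. Slc9a3, the sodium-proton exchanger NHE3, held 2.63, 0.96, 1.71 and 3.18 TPM in DTL1 and 237 to 344 TPM in DTL2 (median 293), a difference of -6.49 (SE 0.26, adjusted p = 1.46e-05). Slc4a11, a membrane transporter of the bicarbonate transporter family, held 59.9, 13, 35.6 and 43.6 TPM in DTL1 and 2230 to 2920 TPM in DTL2 (median 2500), a difference of -5.99 (SE 0.32). Cox7a1, a subunit of cytochrome c oxidase best known from muscle, held 25.7, 20.3, 48.2 and 3.94 TPM in DTL1 and 1360 to 2000 TPM in DTL2 (median 1440), a difference of -6.55 (SE 0.61). In none of these did a DTL1 piece come near a DTL2 piece. Ppp1r1a, an inhibitor of protein phosphatase 1, was at 3.73 ± 5.11 and 326 ± 120 TPM, the growth factor gene Cntf at 7.17 ± 8.39 and 351 ± 78.3 TPM, and Rnf183, a ubiquitin ligase, at 5.92 ± 5.49 and 362 ± 198 TPM.

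**Figure D3:**
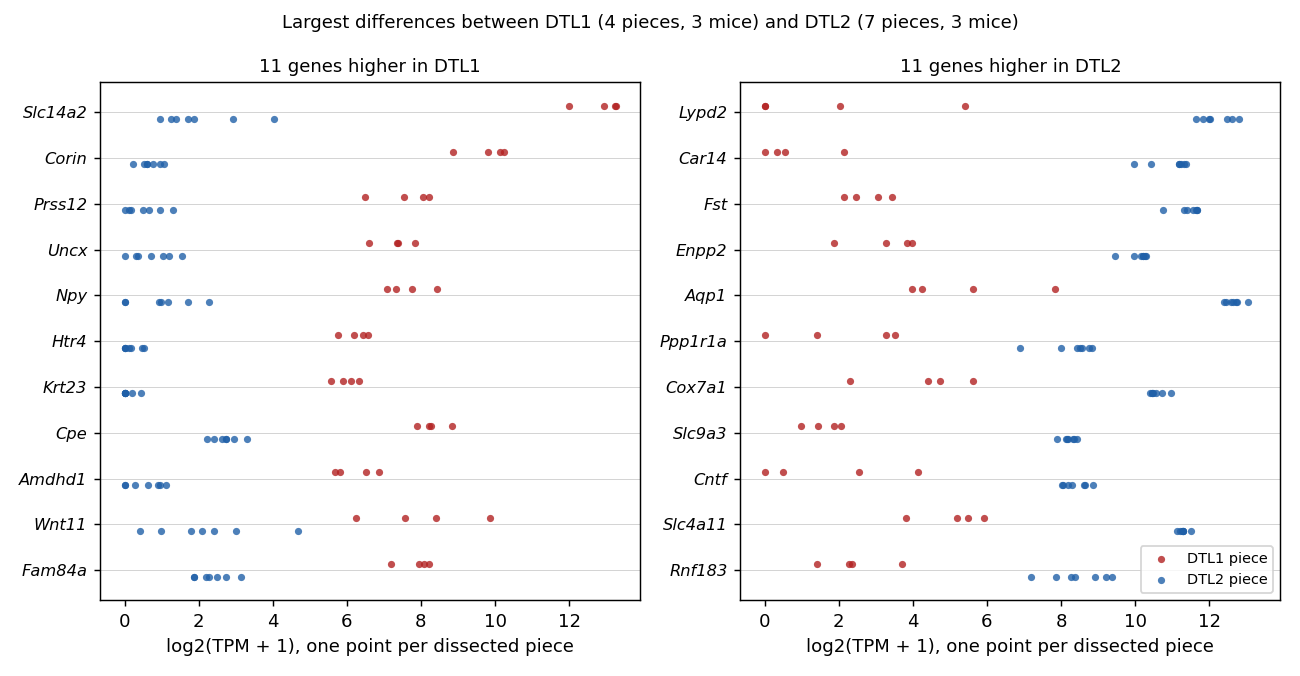
Level of 22 genes, 11 in each direction, among those of the largest log2 difference, as log2(TPM + 1), 1 point per dissected piece and a colour for each segment. In none of the 22 genes does a DTL1 piece overlap a DTL2 piece; Lypd2 and Aqp1 spread widely within DTL1, where mouse 1 is highest.

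The same 22 genes were followed through the 15 dissected structures. Of the 11 higher in DTL1, 10 had their highest mean in DTL1, while Krt23 was highest in the inner medullary collecting duct (277 TPM). Slc14a2 was next highest in the inner medullary collecting duct, at 2180 TPM, where UT-A1 is known to act. Of the 11 higher in DTL2, 7 peaked there (Car14, Fst, Enpp2, Cox7a1, Slc9a3, Cntf and Slc4a11). Lypd2 was at 5490 TPM in ATL and Aqp1 at 11600 TPM in DTL3, the segment that follows DTL2.

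**Figure D4:**
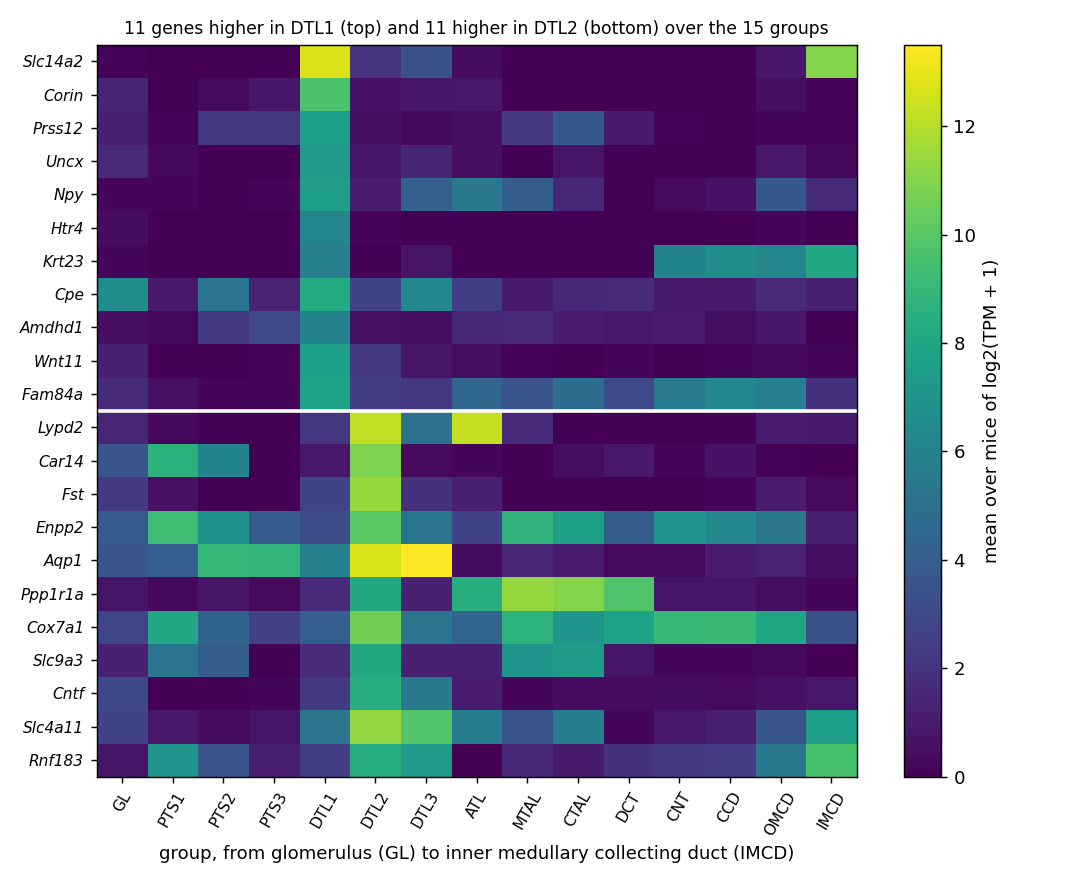
Mean over mice of log2(TPM + 1) of the same 22 genes in each of the 15 dissected groups, in nephron order, with colour for the level. The upper 11 rows are strong in the DTL1 column and the lower 11 in the DTL2 column, and Car14, Fst and Slc9a3 are low in the DTL3 column although DTL3 continues DTL2.

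The next part of the long-loop limb, DTL3, was set beside both segments. For the 652 genes higher in DTL2, the DTL3 mean lay nearer DTL1 in 392 and nearer DTL2 in 260 (39.9%). The mean of Car14 was 2040 ± 749 TPM in DTL2 and 0.393 TPM in DTL3, that of Fst 2790 ± 580 and 3.11 TPM, that of Slc9a3 295 ± 27.8 and 1.39 TPM, and that of Spp1 26300 ± 4590 and 132 TPM. Aqp1, Fxyd2 (6950 TPM in DTL3) and Slc4a11 (929 TPM) stayed high. For the 1732 genes higher in DTL1, DTL3 lay nearer DTL2 in 1288 (74.4%), as with Corin (0.777 TPM in DTL3), Uncx (1.68 TPM) and Slc14a2 (13.4 TPM). The last proximal straight segment lay nearer DTL2 in 85.9% of the DTL1-higher genes and in 27.5% of the DTL2-higher genes. ATL lay nearer DTL2 in 82.4% and 21.5%. These shares are descriptions, because the genes were chosen on DTL1 and DTL2 themselves.

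By amount of RNA, the DTL2-higher genes were led by Spp1, osteopontin, a secreted phosphoprotein. It was at 1870, 624, 1250 and 1370 TPM in DTL1 and at 20400 to 32700 TPM in DTL2 (median 25900), a difference of -4.30 (SE 0.26, adjusted p = 7.56e-05), with mouse 3 giving the lowest piece of DTL1. Fxyd2, the gamma subunit of the sodium pump, came next, with 704, 479, 593 and 723 TPM in DTL1 and 7030 to 9170 TPM in DTL2 (median 8130), a difference of -3.63 (SE 0.13, adjusted p = 1.3e-05). Apela, a peptide ligand of the apelin receptor, was at 1130 ± 96.3 and 3720 ± 615 TPM (-1.71, SE 0.14). On the DTL1 side, beside Slc14a2, stood Gstm1, a glutathione transferase, at 7340, 6690, 7140 and 7860 TPM against 529 to 1560 TPM (median 675; 3.20, SE 0.25). The small heat-shock protein gene Cryab was at 7800 ± 1800 and 2900 ± 276 TPM (1.41, SE 0.17), the beta-actin gene Actb at 3490 ± 513 and 609 ± 156 TPM (2.54, SE 0.20) and Angpt2, a vessel growth factor that binds the receptor Tie2, at 2200 ± 592 and 509 ± 173 TPM (2.15, SE 0.28). Both limbs shared high levels of Itm2b (2950 ± 437 and 3400 ± 76.9 TPM), of the beta-2 microglobulin gene B2m (1620 ± 264 and 1450 ± 268 TPM) and of Igfbp7, none of which was called.

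The gene lists gave the clearest picture in energy metabolism. Cells draw ATP from the respiratory chain of mitochondria, whose nuclear-encoded subunits were represented by 26 genes, all of them at 10 TPM or more. In DTL2, 21 of the 26 were higher (5.56% of all genes at 10 TPM were) and 0 were higher in DTL1 (14.8% of all). The list had a median log2 difference of -1.34. All tested genes had 0.57, those at 10 TPM or more 0.28 and those at 100 TPM or more 0.02. Cox7b, a subunit of cytochrome c oxidase, held 369, 255, 366 and 392 TPM in DTL1 and 2050 to 2830 TPM in DTL2 (median 2130), a difference of -2.66 (SE 0.13, adjusted p = 3.37e-05). Cycs, cytochrome c itself, held 106, 47.5, 84.4 and 97.7 TPM against 410 to 613 TPM (median 495), a difference of -2.48 (SE 0.21). Atp5b, the catalytic subunit of ATP synthase, held 2320, 2030, 2000 and 1870 TPM against 6020 to 6990 TPM (median 6440), a difference of -1.64 (SE 0.11). In all 26 genes the 4 DTL1 pieces lay below the 7 DTL2 pieces, and 5 were not called, among them Ndufs3, Uqcrc1, Ndufb8 and Ndufa9 with differences of -0.97 to -0.54. The count was 25 after median-ratio rescaling, 16 after quantile normalization, 7 when tested against 1 log2 unit (limma treat) and 21 to 22 with any mouse left out. Beyond the list, Cox6a1 was at 1290 ± 107 and 3860 ± 297 TPM. The 37 genes of the mitochondrial genome summed to 11795 ± 2588 TPM in DTL1 and 25556 ± 534 TPM in DTL2 (exact permutation p = 0.1, the smallest possible).

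The transcription factor NRF1 and the estrogen-related receptors are known to drive respiratory genes, with PGC-1alpha as a coactivator. Ppargc1a, the gene of PGC-1alpha, held 21.9, 33.9, 31.9 and 28.7 TPM in DTL1 and 181 to 285 TPM in DTL2 (median 231), a difference of -3.01 (SE 0.20, adjusted p = 0.000109). Esrra, the estrogen-related receptor alpha, was at 18.5 ± 5.93 and 104 ± 23.4 TPM (-2.45, SE 0.28), again with no overlap between pieces. Esrrg, its relative, was at 35.7 ± 10.5 and 82.1 ± 17.9 TPM (-1.23, SE 0.26), a call that was lost without DTL2 mouse 1 or without DTL2 mouse 3. Nrf1 itself was at 51.5 ± 11.7 and 43.9 ± 0.913 TPM and was not called (0.20, SE 0.21, adjusted p = 0.49). Esrra and Nrf1 were looked up after the list results were seen.

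RefSeq promoters of the list (GRCm38.p6, 250 bases before to 50 after the gene start) were searched on both strands for the core of the NRF1 element with any base at its centre, the stretches in capitals below. It was found in 5 of the 18 respiratory genes with a promoter in the set (Atp5c1, Atp5o, Sdha, Sdhd and Uqcrc1), and in 1512 of all 32851 promoters (4.6%). Of these 5 genes 4 were called, a share near that of the list, where 21 of 26 were. The estrogen-related receptor element TNAAGGTCA was found in 1 of the 18, Sdhd, and in 1.28% of all promoters. List members were counted by gene, but the shares of all promoters by promoter, whatever the level of the gene. They are therefore not counted alike, and enrichment was not tested. The glycolysis genes described next also held both. Of the 19 glycolysis genes with a promoter, 3 (Eno1, Ldha and Pgam1) held the NRF1 element and 1 (Tpi1) the estrogen-related receptor element. The stretches below lie upstream of 3 genes whose RNA was higher in DTL2, are written 5′ to 3′ in the direction of the gene (minus strand of the chromosome) and are shown because they carry the element, in capitals.
Sdha, chr13:74350241-74350363: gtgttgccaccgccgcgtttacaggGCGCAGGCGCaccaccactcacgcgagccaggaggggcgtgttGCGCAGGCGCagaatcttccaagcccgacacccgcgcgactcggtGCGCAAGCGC
Sdhd, chr9:50603894-50603953: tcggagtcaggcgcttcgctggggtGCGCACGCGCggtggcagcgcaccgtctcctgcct
Atp5c1, chr2:10080433-10080474: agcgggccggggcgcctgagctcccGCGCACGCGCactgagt

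Sdha and Sdhd encode subunits of succinate dehydrogenase and Atp5c1 a subunit of ATP synthase. Sdha, with 3 elements in 123 bases, was at 342, 310, 292 and 285 TPM in DTL1 and at 725 to 921 TPM in DTL2 (median 811; -1.41, SE 0.12). Sdhd was at 293 ± 31.1 and 745 ± 19.4 TPM (-1.35, SE 0.12) and Atp5c1 at 412 ± 34.6 and 1040 ± 27 TPM (-1.33, SE 0.11). Uqcrc1, which also carries the element, was at 351 ± 29.6 and 655 ± 28.5 TPM and was not called (-0.90). A match of letters is a description of the sequence, and binding was not measured.

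Glycolysis, the path from glucose to pyruvate and lactate, leaned the same way. Of its 17 genes at 10 TPM or more, 12 were higher in DTL2 (5.56% over all such genes) and 1 in DTL1 (14.8% over all), with a list median of -1.37 over its 20 tested genes. Hk1, hexokinase, which traps glucose in the cell, held 110, 117, 80.3 and 67.3 TPM in DTL1 and 345 to 479 TPM in DTL2 (median 390; -2.11, SE 0.19). Slc2a1, the glucose transporter GLUT1, was at 68.1 ± 26.3 and 313 ± 36.1 TPM (-2.26, SE 0.28), Aldoc at 3.61 ± 2.47 and 62.2 ± 11.8 TPM (-3.93, SE 0.42) and Ldhb, lactate dehydrogenase B, at 188 ± 75.9 and 989 ± 81.6 TPM (-2.48, SE 0.29). Gapdh (619 ± 8.7 and 1030 ± 2.31 TPM) and Ldha (815 ± 59.5 and 1500 ± 205 TPM) had differences of -0.73 and -0.87 and were not called. The count in favour of DTL2 was 11 to 13 with any mouse left out, 15 after median-ratio rescaling and 3 when tested against 1 log2 unit.

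The sodium pump, the engine of tubular transport, was represented here by its beta subunits. Atp1b1 was at 628 ± 123 and 1940 ± 157 TPM (-1.64, SE 0.15) and was called, and Atp1b3 was at 471 ± 63.5 and 484 ± 37.9 TPM and was not called. The FXYD regulators of the pump were split. Against Fxyd2, higher in DTL2, stood Fxyd6, at 83.7, 137, 116 and 101 TPM in DTL1 and 7.6 to 33.1 TPM in DTL2 (median 13.3; 2.5, SE 0.34, adjusted p = 0.00293), and Fxyd4, at 49.7 ± 17.2 and 14.3 ± 2.88 TPM (1.78, SE 0.29). Fxyd4 is at 15100 TPM in the outer medullary collecting duct.

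Channels and cotransporters were also split. Kcnj16, an inward-rectifier potassium channel, was at 33.3 ± 11.5 TPM in DTL1 and 309 ± 90.4 TPM in DTL2 (-3.22, SE 0.31), and Slc12a7, a potassium-chloride cotransporter, at 24.2 ± 3.38 and 87.8 ± 8.98 TPM (-1.82, SE 0.18). Kcnk1, a potassium channel of the K2P family, was at 431, 627, 615 and 313 TPM in DTL1 and 158 to 216 TPM in DTL2 (1.26, SE 0.23), a call that median-ratio rescaling removed. Of the 22 ion transport genes at 10 TPM or more, 8 were higher in DTL1 (14.8% of all such genes were) and 7 in DTL2 (5.56% of all). The 7 stayed 7 with any mouse left out, whereas the 8 became 3 without DTL2 mouse 1, 4 without DTL2 mouse 2 or 3, and 2 after median-ratio rescaling. Of the 10 acid-base genes (same shares over all genes), 3 were higher in DTL2 (Car14, Slc4a11 and Car2, the cytosolic carbonic anhydrase, at 71.8 ± 7.02 and 289 ± 4.19 TPM) and 2 in DTL1, of which Slc26a7, an anion exchanger, was at 11.8 ± 3.2 and 0.753 ± 0.104 TPM (2.93, SE 0.37). The other, Car8, lost its call without DTL2 mouse 1 or DTL2 mouse 3 and after either rescaling.

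Of the water and urea list, 3 of 12 genes reached 10 TPM in a segment. Besides Slc14a2 and Aqp1 this was Aqp2, the vasopressin-regulated water channel of the collecting duct, with 5.19, 11.7, 34.5 and 58.7 TPM in DTL1 and 0.39 to 3.98 TPM in DTL2, against 27400 TPM in the inner medullary collecting duct. Its call was lost without DTL1 mouse 3 and without any of the DTL2 mice. Aqp2 is itself one of the distal and collecting duct markers summed above, so that sum is no separate measure of it. Slc14a1, the other urea transporter gene, was at 0.835 and 0.492 TPM.

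Tight junctions set which ions pass between cells, and claudins are the proteins that decide it. Cldn2, a claudin that lets sodium and water through, held 30.7, 12.4, 25.1 and 25.4 TPM in DTL1 and 456 to 628 TPM in DTL2 (median 528), a difference of -4.42 (SE 0.22, adjusted p = 3.84e-05). Cldn8, a claudin of tight distal epithelia, went the other way with 925, 1280, 1420 and 807 TPM in DTL1 and 49.4 to 229 TPM in DTL2 (median 75), a difference of 3.19 (SE 0.38, adjusted p = 0.00158). Cldn4, known as its partner, held 43.6, 50.5, 33.2 and 28.6 TPM against 0 to 8.69 TPM (median 0), a difference of 4.39 (SE 0.46). The lowest Cldn8 and Cldn4 pieces of DTL1 were those of mouse 5, still above every DTL2 piece. Cldn3 was at 55.7 ± 12.6 and 5.6 ± 3.46 TPM (3.25, SE 0.44), and Marveld2, tricellulin, at 23.1 ± 0.718 and 59.1 ± 6.88 TPM (-1.31, SE 0.18). Of the 16 junction genes at 10 TPM or more, 7 were higher in DTL1 and 2 in DTL2, where the shares over all such genes were 14.8% and 5.56%. The 7 became 3 without DTL2 mouse 1 or DTL2 mouse 3, 4 without DTL1 mouse 1 or DTL1 mouse 3, 5 without the other mice, and 3 after quantile normalization, and Cldn3, Cldn4, Cldn8, Cldn2 and Marveld2 kept their calls in each case. Cldn8 was also high in DTL3 (1280 TPM) and Cldn2 was not (6.38 TPM).

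Keratins form the intermediate filaments of simple epithelia, and 4 of the 6 at 10 TPM or more were higher in DTL1, Krt23 among them. Krt18 held 141, 238, 270 and 248 TPM in DTL1 and 11.4 to 35.2 TPM in DTL2 (median 18.5; 3.35, SE 0.30, adjusted p = 0.000402), its partner Krt8 was at 133 ± 11.8 and 46.6 ± 10.1 TPM (1.51, SE 0.19), and Krt19 at 50.2 ± 9.08 and 1.34 ± 0.266 TPM (4.52, SE 0.29). Krt7, at 78.5 ± 22.3 and 107 ± 12.5 TPM, and Krt80, at 25.5 ± 10.9 and 8.67 ± 3.98 TPM, were not called. Of the 8 genes of the list, which holds other filament genes too, at 10 TPM or more 5 were higher in DTL1 and 0 in DTL2 (14.8% and 5.56% over all such genes). The fifth, Nes, which is not a keratin, overlapped between pieces and lost its call without DTL1 mouse 1 or any DTL2 mouse, and the count was 3 without DTL1 mouse 1, where Krt23 fell under the filter and had no test.

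Adhesion genes were called in both directions. Of 20 members at 10 TPM or more, 3 (against 14.8% of all such genes) were higher in DTL1, a share near that of all genes, and 5 (against 5.56%) were higher in DTL2. Cdh13, a cadherin held by a lipid anchor, was at 17.1, 8.42, 6.76 and 12.9 TPM in DTL1 and at 272 to 355 TPM in DTL2 (median 300), a difference of -4.59 (SE 0.27, adjusted p = 6.61e-05). Cdh1, E-cadherin, was at 69.1 ± 8.72 and 220 ± 8.24 TPM (-1.65, SE 0.15), and Itgav, an integrin subunit, at 30.3 ± 4.22 and 124 ± 19.3 TPM (-1.98, SE 0.19). Alcam, an adhesion molecule of the immunoglobulin family, held 84.4, 62, 59.2 and 46.8 TPM in DTL1 and 0.98 to 4.54 TPM in DTL2 (median 3.15; 4.02, SE 0.30), and the P-cadherin gene Cdh3 was at 17.5 ± 3.07 and 0.319 ± 0.293 TPM (3.85, SE 0.36). Epcam was at 929 ± 167 and 854 ± 24.6 TPM and was not called.

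Of the Ly6 family, to which Lypd2 belongs, 5 of 12 members at 10 TPM or more were higher in DTL2 (5.56% of all such genes were) and 1 in DTL1 (14.8% of all). Lynx1, a family member known to act on nicotinic receptors, held 13.6, 22.5, 14.2 and 19.9 TPM in DTL1 and 95.9 to 232 TPM in DTL2 (median 174; -3.23, SE 0.27), and Psca was at 1.87 ± 1.65 and 26.2 ± 7.82 TPM (-3.19, SE 0.47). Both are higher still in ATL, at 199 and 13800 TPM. The DTL1-higher member, Ly6g6e, lost its call without DTL1 mouse 3 or any DTL2 mouse. The count for DTL1 went to 4 without DTL1 mouse 1.

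Matrix genes were called in both directions. Nid2, nidogen-2, which links laminin to collagen IV, held 319, 406, 469 and 309 TPM in DTL1 and 45.4 to 95.3 TPM in DTL2 (median 59.8; 2.47, SE 0.21, adjusted p = 0.000363), and Nid1 was at 81 ± 20 and 15.6 ± 2.36 TPM (2.31, SE 0.24). Agrn, agrin, a substrate of the protease of Prss12, was at 153 ± 48.4 and 56.9 ± 8.57 TPM (1.38, SE 0.26). Col4a3, a collagen IV chain, was at 21.2 ± 5.98 and 83.9 ± 18.9 TPM (-1.94, SE 0.27), while Col4a1 and Col4a2, the common chains, were not called. Of the 20 matrix genes at 10 TPM or more, 7 were higher in DTL1 and 3 in DTL2, Spp1 among them, against 14.8% and 5.56% of all such genes. The 7 became 10 without DTL1 mouse 5 and 4 without DTL2 mouse 3, and the 3 became 2 without DTL1 mouse 5 or any DTL2 mouse.

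**Figure D5:**
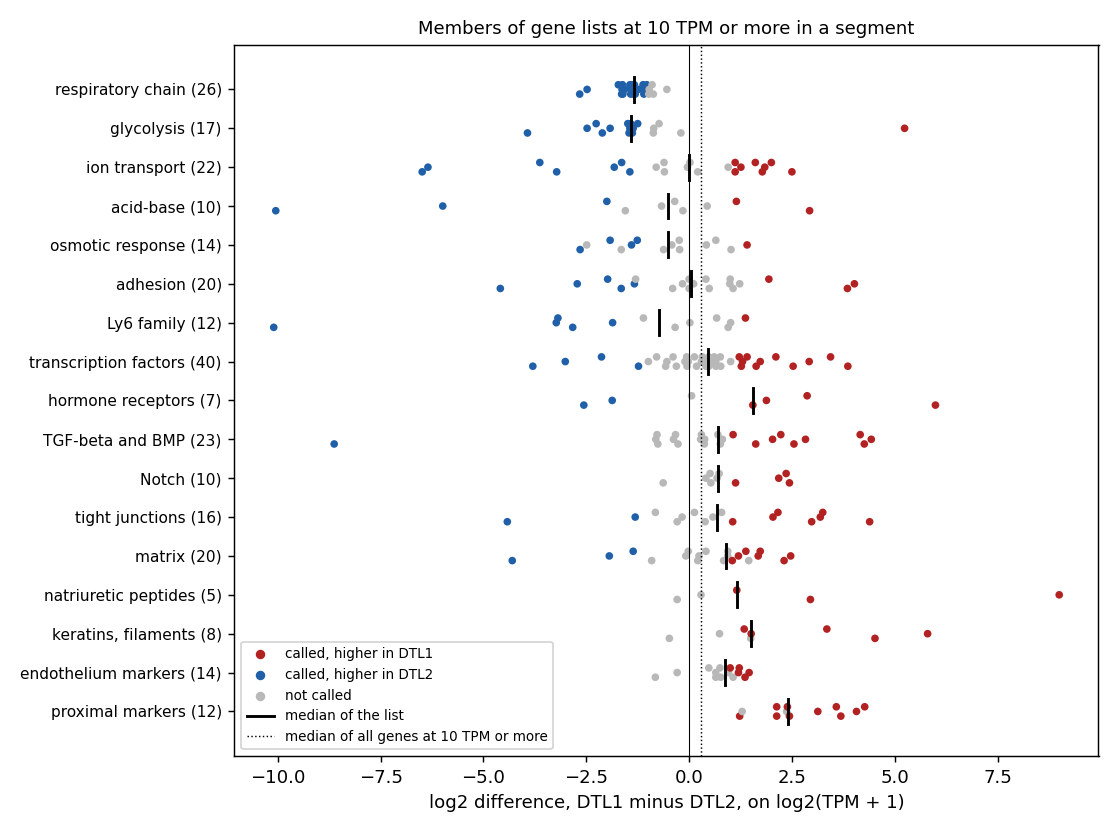
Log2 difference (DTL1 minus DTL2, on log2(TPM + 1)) of every list member at 10 TPM or more in a segment, 1 point per gene and 1 row per list, with the list median as a bar and the median of all such genes (0.28) as a dotted line. The respiratory chain and glycolysis rows lie mostly left of 0 (higher in DTL2), the keratin row lies mostly right of it, and ion transport and adhesion genes spread to both sides.

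Bone morphogenetic proteins (BMPs), activins and their relatives signal through paired receptors and SMAD proteins, and Id genes are well-known BMP targets. Among the ligands, Bmp3 held 62.9, 47, 62.7 and 37.6 TPM in DTL1 and 0.27 to 5.69 TPM in DTL2 (median 0.95; 4.43, SE 0.34, adjusted p = 0.000196). Bmp6 held 40.5, 28.6, 46.5 and 32.4 TPM against 0.45 to 2.25 TPM (median 1.05; 4.16, SE 0.30), and Gdf15 held 550, 311, 580 and 567 TPM against 12 to 42.4 TPM (median 33.5; 4.26, SE 0.36). These 3 ligands did not overlap between segments, and Bmp4, at 50.6 ± 14.8 and 39 ± 12.8 TPM, and Tgfb1 were not called. Inhba, an activin subunit, was at 13.6 ± 3.9 and 2.79 ± 1.37 TPM (2.03, SE 0.41). Its pieces overlapped between the segments, and its call was lost after quantile normalization and without DTL2 mouse 1 or DTL2 mouse 2.

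Of the receptors, Acvr1, a type I receptor, was at 23 ± 1.93 and 6.82 ± 1.21 TPM (1.62, SE 0.26; not called after quantile normalization), and Tgfbr2, the type II receptor of TGF-beta, was at 61 ± 6.98 and 29 ± 7.17 TPM (1.07, SE 0.22). The call of Tgfbr2 was lost after both rescalings and without DTL1 mouse 3, DTL2 mouse 1 or DTL2 mouse 3. Bmpr1a, Acvr2a and Tgfbr1 were not called. Of the secreted binding proteins, Fst was by far the more abundant in DTL2, and Fstl1, a follistatin-like protein, was higher in DTL1, with 365, 295, 291 and 282 TPM against 26.1 to 65.6 TPM (median 41.9; 2.83, SE 0.18). Nog, noggin, a BMP antagonist, was listed at 0 in all 4 DTL1 pieces and at 2.91 to 7.28 TPM in DTL2.

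Of the target genes, Id1 held 483, 681, 533 and 491 TPM in DTL1 and 73 to 104 TPM in DTL2 (median 88.8; 2.55, SE 0.15, adjusted p = 7.7e-05). Id3 held 2780, 3620, 3360 and 3080 TPM against 573 to 751 TPM (median 644; 2.23, SE 0.11, adjusted p = 4.56e-05), and was at 31.6 TPM in DTL3. Id2 (357 ± 44.5 and 452 ± 98.4 TPM) and Id4 (155 ± 25.7 and 272 ± 37.8 TPM) were not called, so 2 of these 4 Id genes were called. Over the list, 9 of 23 genes at 10 TPM or more were higher in DTL1 and 1, Fst, in DTL2, where 14.8% and 5.56% of all such genes were, with 13 not called and a median of 0.61 over the 31 tested, close to the 0.57 of all genes. The counts were 8 and 3 after median-ratio rescaling.

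Natriuretic peptides act on receptors that make cyclic GMP. Beside Corin, DTL1 had more of Npr2, the receptor of C-type natriuretic peptide, at 173, 115, 145 and 88 TPM against 7.78 to 32.3 TPM in DTL2 (median 18.4; 2.95, SE 0.35, adjusted p = 0.00159), and it was the highest of the 15 groups for both genes. Npr1, the receptor of the atrial peptide, was at 19.4 ± 4.71 and 8.15 ± 1.99 TPM (1.16, SE 0.31), a call lost without each mouse but DTL1 mouse 5. The peptide genes Nppa and Nppb were under 1 TPM in both limbs, and Furin and Mme were not called. Altogether 3 of the 5 members at 10 TPM or more were higher in DTL1 and 0 in DTL2 (14.8% and 5.56% over all such genes).

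Among other hormone receptors, 4 of 7 at 10 TPM or more were higher in DTL1 and 2 in DTL2 (14.8% and 5.56% over all such genes). Ednrb, the endothelin B receptor, held 266, 270, 134 and 196 TPM in DTL1 and 45.6 to 86.7 TPM in DTL2 (median 56; 1.88, SE 0.22, adjusted p = 0.00148). Adora1, the adenosine A1 receptor, held 30.3, 36.7, 32.9 and 30.7 TPM in DTL1 and 154 to 229 TPM in DTL2 (median 191; -2.56, SE 0.16, adjusted p = 8.71e-05), and P2ry2, a receptor of ATP and UTP, was at 23.8 ± 4.18 and 89 ± 3.15 TPM (-1.87, SE 0.19). These purine receptors stood on the DTL2 side and P2rx4 was not called, but P2ry14, another purine receptor, was higher in DTL1 under 10 TPM (9.77 ± 5.2 and 1.51 ± 0.501 TPM; 2.06, SE 0.46). Its call was lost after quantile normalization and without any of the DTL2 mice. Pth1r, the parathyroid hormone receptor, was at 26 ± 9.89 and 3.67 ± 3.11 TPM (2.87, SE 0.45).

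Notch ligands sit on the surface of a cell and act on Notch receptors of its neighbours. Jag1 held 227, 108, 135 and 105 TPM in DTL1 and 21.1 to 37.5 TPM in DTL2 (median 23.6; 2.36, SE 0.28, adjusted p = 0.00161), and Jag2 and Dll1 were at 20.7 ± 8.54 and 16 ± 1.38 TPM in DTL1 against 3 ± 1.15 and 3.12 ± 1.54 TPM in DTL2. The Dll1 call was lost after quantile normalization. Of 10 Notch pathway genes at 10 TPM or more, 4 were higher in DTL1 (14.8% over all such genes) and 0 in DTL2 (5.56% over all). Hes1, a target of the pathway, was at 81.8 ± 43.4 and 56.4 ± 11.9 TPM and was not called. The targets Hey1 (3.31 ± 0.91 and 0.333 ± 0.461 TPM; 1.75, SE 0.39) and Hey2 (5.61 ± 0.625 and 1.79 ± 0.879 TPM; 1.39, SE 0.38) were called higher in DTL1 at levels under 10 TPM. Both calls were lost after quantile normalization and without DTL2 mouse 1 or DTL2 mouse 2, and that of Hey2 also without DTL1 mouse 1, DTL1 mouse 3 or DTL2 mouse 3; Hey1 had no test without a DTL1 mouse.

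Of 40 transcription factors at 10 TPM or more, 11 were higher in DTL1 (14.8% over all such genes), 4 in DTL2 (5.56% over all) and 25 not called. Besides Ppargc1a and Esrrg the DTL2-higher factors were Osr2, at 25, 6.13, 17.5 and 17.4 TPM in DTL1 and 197 to 311 TPM in DTL2 (median 242; -3.80, SE 0.30), and Tfcp2l1, at 17.2 ± 5.28 and 82.3 ± 38.1 TPM (-2.13, SE 0.35). Osr2 was higher still in DTL3, at 569 TPM. In DTL1, Foxc1, a forkhead factor, held 156, 148, 131 and 87.1 TPM against 28 to 43.3 TPM (median 37.3; 1.73, SE 0.24), Sim2 was at 49.9 ± 16.2 and 4.99 ± 4.17 TPM (3.44, SE 0.56), and the homeobox gene Hoxd8 at 87.8 ± 23.5 and 14.8 ± 5.52 TPM (2.53, SE 0.31). The lineage factor Pax8 (695 ± 160 and 629 ± 250 TPM) was not called. The count for DTL1 was 6 after median-ratio rescaling and 7 without any 1 of the DTL2 mice.

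The medulla is hypertonic, and its cells respond with osmolyte transporters and chaperones. Of 14 such genes 4 were higher in DTL2 (5.56% over all genes at 10 TPM), 1, Cryab, was higher in DTL1 (14.8% over all) and 9 were not called, among them the osmotic regulator Nfat5 (32.3 ± 3.87 and 50.5 ± 6.95 TPM), the aldose reductase gene Akr1b3 (167 ± 47.5 and 287 ± 266 TPM) and the taurine transporter gene Slc6a6 (628 ± 180 and 321 ± 145 TPM). Hspb1, a small heat-shock protein like Cryab, was at 177, 180, 126 and 95.9 TPM in DTL1 and at 274 to 383 TPM in DTL2 (median 358; -1.26, SE 0.23), so these 2 chaperones went opposite ways. The other DTL2-higher members, Hspa1a, Hspa1b and Hspa4l, lost their calls without DTL2 mouse 3. The count for DTL2 was 1 without DTL2 mouse 3, 2 without DTL2 mouse 1 and 5 without DTL1 mouse 1 or DTL1 mouse 5. Of the 10 early-response genes at 10 TPM or more, 2 were higher in DTL1, a share near the 14.8% of all such genes. They were Dusp1, a phosphatase of MAP kinases (1130 ± 583 and 192 ± 55.2 TPM; 2.47, SE 0.35), and Ier3, and Fos, Jun and Egr1 were not called.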

How the data were processed

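The authors deposited 1 table of TPM values for 54532 genes in 93 samples. The submitters' processing notes name STAR 2.5.4a and RSEM 1.3.0; their roles, the genome build and the annotation are not given in the sources used here. TPM keep no read depth. The cDNA kit's strand use is not stated, so overlapping genes on opposite strands cannot be told apart. Biotypes came from GENCODE M21 by gene identifier (54409 matched). 3 single-cell samples were not analysed here.

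Pieces of a mouse were averaged as log2(TPM + 1), a pseudocount of 1. Genes at 1 TPM or more in at least 3 of 6 mice were tested with limma 3.58.1 in R 4.3.3 (lmFit, eBayes with trend), two-sided, with Benjamini-Hochberg adjustment over all 24793 genes. With 3 mice a segment, p-values weigh a difference against the spread between these animals, which limma moderates by the spread of genes of similar level. In simulated data with 3 mice a segment, 200 of 24793 genes were changed. Of these, 29% were recovered at a change of 1.5 log2 units, 59% at 2 and 89% at 4. Between 7 and 23 unchanged genes were called, depending on the size of the change. Far fewer genes were changed than the 17.4% called in the data, and noise was drawn for each gene on its own. The recovered shares therefore do not give the power reached in the data. Means ± SD are of TPM over mice.

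Named genes are the 12 largest log2 differences and the 8 largest TPM differences in each direction whose pieces separate the segments and which reach 10 TPM (predicted, ribosomal, mitochondrial and receptor genes passed over), up to 5 called members per list and direction, abundant shared genes, and Slc14a2 and Lypd2; some genes that meet this rule are not reported here. The members and lists were chosen with earlier results of these data known; genes named by another route are said to be so. Mouse numbers 1 and 3 occur in both segments, but the 93 samples form 53 combinations of mouse number and segment, the stated number of mice, so numbers were taken as different animals; their deviations from the segment means correlated at 0.011 and -0.063. Alternatives changed the pseudocount, filter, scaling, averaging, spread, threshold and the mice.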

Additional observations from a re-analysis of the deposited data

How the results depend on the processing

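With 21 alternatives, no named gene that was called changed direction where it was tested. Of the named genes that were called, 10, low in a segment, fell under the filter and had no test without some mouse. The named genes were picked from these same data, so this does not speak for the other genes. Against 4311 calls over all genes (1732 higher in DTL1 and 652 higher in DTL2 at 10 TPM), a pseudocount of 5 gave 1930, a filter at 5 TPM 2867 and no filter 2052, where other numbers of genes were tested under the filters. Median-ratio rescaling gave 928 higher in DTL1 and 1141 higher in DTL2 at 10 TPM. Quantile normalization gave 1776 calls, 659 of them higher in DTL1 at 10 TPM, and a floor at 10 TPM gave 1055, of which 585 were higher in DTL1. Treating the 11 pieces as independent gave 6804 calls and a fit on all 15 groups 8112. A replicate block on the mouse number in that fit gave 7516; the samples share only a number, so it pairs nothing. A test against 1 log2 unit (limma treat) called 365 genes, 210 and 146 of them at 10 TPM; higher in DTL2 were 7 respiratory (21 in the fit as reported), 3 glycolysis (12) and 0 osmotic genes (4), and higher in DTL1 were 0 ion transport genes (8) and 1 transcription factor (11). Leaving out 1 mouse gave 1307 to 4631 calls, with 769 to 1756 higher in DTL1 and 414 to 692 higher in DTL2 at 10 TPM; every DTL2 mouse lowered the total by over 1.5 times (1307, 1673 and 1384 without mouse 1, 2 and 3). The causes of these shifts were not tested. TPM limit what can be said of low genes: neither depth nor a counting error is known, and 3 mice a segment limit the rest.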

Other observations

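The genes in this section were picked after their values were seen, so the values are descriptions. Endothelin-3 and its receptor were found in the same pieces. Edn3 was at 283, 324, 289 and 243 TPM in DTL1 and at 17.8 to 46 TPM in DTL2 (median 22.7; 3.40, SE 0.24, adjusted p = 0.000146, limma), the highest of the 15 groups, beside the endothelin B receptor gene described above, and Edn1 was at 4.59 ± 2.63 and 1.83 ± 0.315 TPM and was not called. Other receptors of circulating signals were higher in DTL1, among them Tshr, the thyrotropin receptor, at 98.4, 96.7, 81 and 57.7 TPM against 0.14 to 2.4 TPM (5.11, SE 0.34), and Epor, the erythropoietin receptor, at 66.7 ± 40.2 and 1.5 ± 1.19 TPM (4.81, SE 0.57). Artn, artemin, a ligand of the GDNF family, was at 30.2 ± 15.4 and 0.876 ± 1.25 TPM. In DTL2 stood Ackr3, a scavenging chemokine receptor, at 9.96 ± 2.82 and 494 ± 208 TPM (-5.42, SE 0.36), Agt, angiotensinogen, at 24.1 ± 8.82 and 630 ± 129 TPM (-4.71, SE 0.29), Vegfa at 20.7 ± 3.89 and 151 ± 17.1 TPM (-2.82, SE 0.19), and the interleukin gene Il7 at 2.28 ± 1.07 and 20.9 ± 3.71 TPM. Ckmt1, mitochondrial creatine kinase, was at 39.3 ± 18.2 and 821 ± 29.1 TPM (-4.44, SE 0.27), on the same side as the respiratory genes.

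Close relatives did not always move together. Ifit3 was at 2070 ± 550 and 313 ± 93.6 TPM and its near-copy Ifit3b at 733 ± 59.7 and 86.2 ± 26.1 TPM, whereas other interferon-response genes, Isg15 (40.1 ± 18.6 and 31.2 ± 16.8 TPM), Irf7, Rsad2 and Usp18, were not called. Actb was called and Actg1, the other cytoplasmic actin, was at 634 ± 126 and 749 ± 182 TPM and was not. Gstm2 was at 1630 ± 184 and 52 ± 24.5 TPM, beside its relative Gstm1. Reads of such near-identical genes can be split between copies, so their separate values are uncertain. Anxa2, the calcium-binding protein annexin A2, was at 1320 ± 68.3 and 350 ± 82.6 TPM (1.95, SE 0.17), and S100a6 at 1110 ± 948 and 62.8 ± 62.6 TPM, with 2200 TPM in DTL1 mouse 5 and 306 TPM in a piece of mouse 3.

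Some entries that are not known proteins were large. The predicted gene Gm10800 was at 14600 to 18800 TPM in DTL1 and 879 to 2790 TPM in DTL2. Gm23419, an 84-base entry annotated as a microRNA gene that lies within Actg1 on the same strand in GENCODE M21, was listed at 0 in all 4 DTL1 pieces and at 731 to 2660 TPM in DTL2. Entries of 76 to 90 bases were listed above 0 in 1 to 5 genes of a DTL1 piece and 9 to 19 genes of a DTL2 piece, while those of 91 to 120 bases were listed above 0 in 106 to 122 and 47 to 98 genes, that is in the opposite order. The cause was not tested, and the labels used here give no sequencing run or date.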
